A study of Mus musculus with 6 samples.

Results

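The genes described here are the heat shock proteins and their relatives: the Hsp70 (Hspa), Hsp110 (Hsph), Hsp90 and small heat shock (Hspb) proteins, the J-proteins (Dnaj), the mitochondrial chaperonin (Hspd1 and Hspe1) and the cytosolic chaperonin subunits (Cct). Members were taken by symbol alone, as every gene whose single annotated symbol begins with Hspa, Hspb, Hspd, Hspe, Hsph, Hsp90, Dnaj or Cct and a digit, with Hspa5 left out. The rule also takes in Hspbp1, which is no small heat shock protein but a nucleotide exchange factor of Hsp70. It gave 60 genes on 74 probes, out of 10698 genes on 13738 probes with 1 symbol. Of the 60, 42 had a probe with a ratio on all 6 arrays and were tested, while 18 were listed at exactly 0, taken as no measurement, on some array for each of their probes.

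Chaperones bind proteins that are not yet folded, or that have lost their fold, and keep them from clumping. Hsp70 proteins bind and release short greasy stretches in a cycle driven by ATP, J-proteins hand them their clients and start ATP hydrolysis, and exchange factors reset the cycle. Hsp90 acts later, on kinases and receptors that are nearly folded, while chaperonins enclose a client in a chamber. In stressed cells heat shock factors turn on many of these genes, and a separate response of the endoplasmic reticulum, the compartment where secreted proteins fold, turns on its own set. Macrophages that meet bacterial products begin to make large amounts of secreted protein.

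RNA of RAW 264.7 cells, a macrophage-like line from a mouse tumour caused by Abelson leukaemia virus, was compared between untreated cells and cells given lipopolysaccharide (LPS, 100 ng/ml), the outer membrane component that triggers Toll-like receptor 4, with LPS-binding protein (LBP, 100 pM) for 1 h. Part of the labels write RAW 264.4. Each of the 6 dual-channel arrays carried both RNAs, 3 with treated RNA in Cy5 and 3 with it in Cy3, numbered as sets 1 to 3 in each orientation. All samples came from 1 line, and the labels leave unsaid whether the sets were separate cultures. The p-values therefore speak only to the variation among these samples, part or all of which may be technical. The values are log2 ratios with the Cy3 arrays turned in sign, so that a positive value means more transcript in treated RNA and 1 means a doubling. The direction is the likely one, since the Cy5 sample is described as the test, and all signs would turn with Cy3 as the numerator. The arrays give ratios and no levels, so the abundance of a chaperone, or of a marker of the cell type, was not measured. Of the 9 macrophage markers looked up, 8 were on the array and had ratios on all 6 arrays. One of them, Adgre1, was higher (0.55 ± 0.11), and of 5 lymphocyte markers tested Cd4 (0.47 ± 0.21) and Cd79a (0.20 ± 0.06) were. Of 8 fibroblast and epithelial markers, 1 had a ratio on all arrays and it was not called. The part of these markers in the chaperone results was not tested.

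To show where known stress elements lie among the genes that the results turn on, the 250 bases before the start of 6 of them are given 5′ to 3′ from the RefSeq promoter table of mouse build GRCm38.p6. Capitals mark matches to a heat shock element of 2 units (GAANNTTC or TTCNNGAA) or to a CCAAT box (CCAAT or its reverse complement), searched on both strands. Dnajb9 (chr12:44210069-44210318, minus strand) and Dnajb1 (chr8:83607925-83608174, plus strand) had the largest rises among the tested members. Dnajc28 (chr16:91619000-91619249, minus strand) had the largest fall. Hspb1 (chr5:135887669-135887918, plus strand), Hspa1b (chr17:34959239-34959488, minus strand) and Hsph1 (chr5:149636337-149636586, minus strand) are classical heat-inducible genes. Dnajb1 and Hsph1 have a further start in the table that is not shown.
Dnajb9: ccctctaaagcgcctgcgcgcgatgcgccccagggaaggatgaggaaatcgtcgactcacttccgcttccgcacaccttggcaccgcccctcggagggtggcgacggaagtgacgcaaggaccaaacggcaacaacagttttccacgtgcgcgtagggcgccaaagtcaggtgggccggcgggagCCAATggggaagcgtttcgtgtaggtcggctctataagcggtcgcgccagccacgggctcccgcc
Dnajb1: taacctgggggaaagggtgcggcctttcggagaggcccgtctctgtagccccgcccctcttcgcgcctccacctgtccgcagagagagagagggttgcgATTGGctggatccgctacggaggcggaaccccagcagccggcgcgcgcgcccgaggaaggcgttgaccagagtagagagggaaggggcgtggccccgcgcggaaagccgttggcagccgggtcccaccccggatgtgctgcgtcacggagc
Dnajc28: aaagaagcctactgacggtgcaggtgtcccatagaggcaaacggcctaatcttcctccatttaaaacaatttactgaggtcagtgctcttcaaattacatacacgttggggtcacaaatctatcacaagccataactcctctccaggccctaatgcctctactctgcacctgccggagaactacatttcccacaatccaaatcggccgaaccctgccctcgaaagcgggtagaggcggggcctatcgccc
Hspb1: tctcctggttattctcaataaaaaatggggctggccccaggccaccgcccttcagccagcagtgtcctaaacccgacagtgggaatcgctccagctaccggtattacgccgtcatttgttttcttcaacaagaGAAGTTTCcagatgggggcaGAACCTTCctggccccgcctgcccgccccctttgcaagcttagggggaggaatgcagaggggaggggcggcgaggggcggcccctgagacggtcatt
Hspa1b: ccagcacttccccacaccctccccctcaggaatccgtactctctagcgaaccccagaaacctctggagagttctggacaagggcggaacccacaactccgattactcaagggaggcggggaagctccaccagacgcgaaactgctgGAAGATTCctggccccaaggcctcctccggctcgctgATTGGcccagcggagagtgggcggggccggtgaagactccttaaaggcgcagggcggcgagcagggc
Hsph1: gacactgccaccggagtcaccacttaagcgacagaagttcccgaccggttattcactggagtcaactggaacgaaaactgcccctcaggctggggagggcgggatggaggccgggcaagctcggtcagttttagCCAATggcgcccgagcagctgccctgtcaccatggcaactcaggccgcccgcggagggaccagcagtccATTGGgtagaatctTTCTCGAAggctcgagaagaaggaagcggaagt
In these windows the heat shock element lay at -117 to -110 and at -97 to -90 from the start of Hspb1, at -104 to -97 from that of Hspa1b and at -33 to -26 from that of Hsph1. The windows shown for Dnajb9, Dnajb1 and Dnajc28 held no such letters, which says only that the letters are absent from these 250 bases. Hspd1 and Hspe1 are neighbours read in opposite directions, and their windows share an element of 18 bases, in which 3 matches overlap, at chr1:55088059-55088076 (given on the plus strand, that of Hspe1), shown because it lies in the windows of both genes.
Hspe1 and Hspd1 element: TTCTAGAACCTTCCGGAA
The table held windows for 49 of the 60 members. A heat shock element of 2 units was in a window of 14 of these 49 (28.6%), against 14.5% of the 27025 genes with a window. The 14 include Hspd1 and Hspe1, which share their element, and Hspa1a and Hspa1b, whose windows are near-identical. The 49 members had 65 windows and the 27025 genes had 32851, and a gene with more windows has more places for a match. The element of the endoplasmic reticulum stress response (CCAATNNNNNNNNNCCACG, whose first letters overlap the CCAAT box) was in a window of Dnajc3 and Hsp90b1, against 0.13% of all genes. An element of 3 alternating units at the same spacing, which holds that of 2 units, was in a window of Dnajb6, Hspd1 and Hspe1, against 0.514% of all genes. A CCAAT box was in a window of 44.9% of the members and of 37.5% of all genes. The cAMP response element TGACGTCA was in 0 of the 49, against 1.77% of all genes.

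Few chaperone genes moved within the hour. Of the 42 tested, 2 rose, Dnajb9 and Dnajb1, and 2 fell, Dnajc28 and Dnajc4 (limma, adjusted p under 0.05 over all genes). That is 9.52% of the tested members, against a background of 13.2% of all 8331 genes tested, 6.96% of which rose and 6.21% of which fell. The members' share was thus no higher than the background. At an unadjusted p under 0.05 there were 11 of the 42 members, against 2253 of all 8331 genes. The median of the members' means was 0.02, against -0.01 for all genes, and the median size regardless of sign was 0.044, against 0.069. In 32 of the 42 the mean lay within 0.1 of 0 (76.2%, against 64.8% of all genes). All 4 called genes are J-proteins, whereas no tested member of the Hspa, Hsph, Hsp90, Hspd, Cct or Hspb groups passed. The J-proteins were also the largest part of the test, with 13 Dnajc, 8 Dnajb and 3 Dnaja genes. The other groups had 7 Hspa, 4 Cct and 3 Hspb genes tested, and 1 each of Hsph, Hsp90 and Hspd. Whether J-proteins differ from the other families was not tested. In RNA from whole cultures, fewer cells that express a gene and less RNA of it per cell cannot be told apart.

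**Figure D1:**
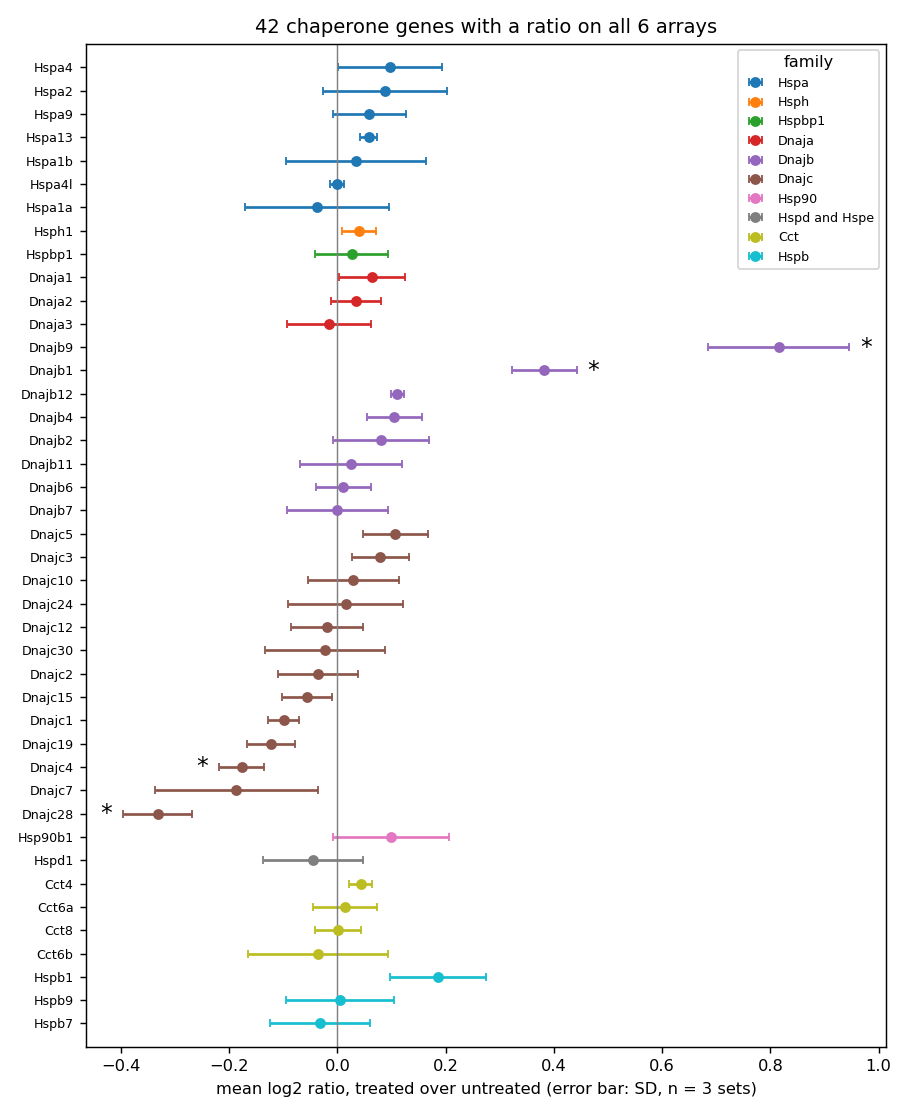
Mean log2 ratio of treated over untreated RNA for the 42 chaperone genes with a ratio on all arrays, one row per gene, coloured and ordered by family. Bars are the SD over 3 sets and asterisks mark an adjusted p under 0.05. Most means lie within 0.1 of 0, with Dnajb9 and Dnajb1 far to the right and Dnajc28 to the left.

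Dnajb9 encodes a J-protein of the endoplasmic reticulum lumen that works with the Hsp70 of that compartment and is a textbook target of the unfolded protein response. For sets 1, 2 and 3 the Cy5 arrays, those that carried treated RNA in Cy5, gave 0.62, 0.49 and 0.80, and the Cy3 arrays gave 1.07, 0.86 and 1.06. All 6 were above 0, and every Cy3 array was higher than every Cy5 array. The mean was 0.82 ± 0.13 (SD, n = 3 sets), or 1.76-fold (limma, adjusted p = 0.000454), and 93 of the 8331 genes had a larger mean. Both probes of Dnajb9 are annotated to the same transcript record, and they averaged 0.80 and 0.83. Dnajb9 kept its call under every alternative run, including each dye orientation alone (0.64 in Cy5 and 0.99 in Cy3).

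Dnajb1, the cytosolic partner of Hsp70 that heat shock induces in most cells, gave 0.58, 0.57 and 0.52 on the Cy5 arrays. On the Cy3 arrays it gave 0.32, 0.11 and 0.19. All arrays were above 0, with the Cy5 arrays the higher ones, the reverse of the order seen for Dnajb9. The mean was 0.38 ± 0.06 (n = 3 sets), or 1.30-fold (limma, adjusted p = 0.00309). On the Cy3 arrays alone the mean was 0.21 and did not pass (adjusted p = 0.128).

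Dnajc28 is a little-studied J-domain gene. It gave -0.20, -0.40 and -0.30 on the Cy5 arrays and -0.34, -0.27 and -0.49 on the Cy3 arrays. The arrays of both orientations overlapped and all 6 were below 0. It fell by 0.33 ± 0.06 on the log2 scale (n = 3 sets), a 1.26-fold change (limma, adjusted p = 0.00544), and kept its call under every alternative run. Dnajc4, another J-domain gene, gave -0.23, -0.33 and -0.20 in Cy5 and -0.08, 0.03 and -0.25 in Cy3, with 1 array above 0. It fell by 0.18 ± 0.04 (adjusted p = 0.042), close to the threshold. With set 1, 2 or 3 left out it no longer passed, at -0.19, -0.19 and -0.15, nor did it on the Cy3 arrays alone (-0.10, adjusted p = 0.429). It also missed the threshold with zeros kept (adjusted p = 0.0754), with incomplete probes (adjusted p = 0.1) and after quantile normalization (adjusted p = 0.0505).

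**Figure D2:**
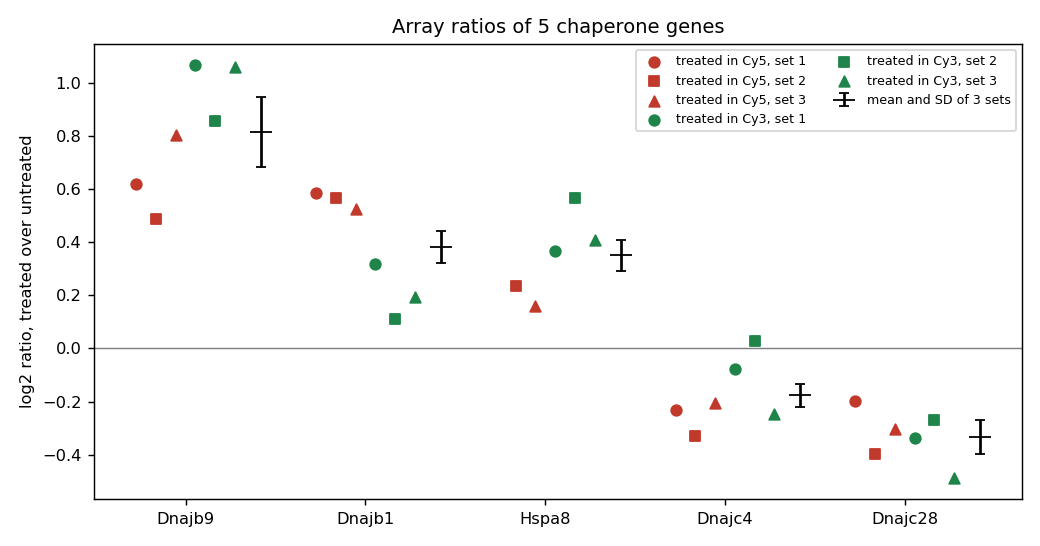
Log2 ratio of treated over untreated RNA on each array for the 4 called chaperone genes and for Hspa8, whose set 1 array with treated RNA in Cy5 was listed at 0. Red marks are arrays with treated RNA in Cy5, green marks those with it in Cy3, shapes are sets, and the black bar is the mean and SD of 3 sets. Dnajb9 and Dnajc28 keep 1 sign on all 6 arrays, as does Dnajb1, while Dnajc4 has 1 array above 0.

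A single sign held across the 6 arrays in 5 of the 42 members (11.9%), against 19.1% of all genes. Besides Dnajb9, Dnajb1 and Dnajc28 these were Dnajb4 and Dnajc5. Dnajb4, a close relative of Dnajb1, averaged 0.11 ± 0.05 over arrays from 0.0021 to 0.21 (adjusted p = 0.179). Its probes averaged 0.05 and 0.16. Dnajc5, the cysteine string protein of secretory vesicles, averaged 0.11 ± 0.06, over arrays from 0.04 to 0.26 (adjusted p = 0.183).

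Among the Hsp70 proteins, Hspa8, the constitutive form that also uncoats clathrin vesicles, was left out of the test because 1 array was listed at 0. The remaining Cy5 arrays, of sets 2 and 3, gave 0.23 and 0.16, and the Cy3 arrays of sets 1, 2 and 3 gave 0.37, 0.57 and 0.41. All 5 were above 0, the Cy3 arrays again the higher ones. In a fit that also used incomplete probes, Hspa8 averaged 0.35 ± 0.06 and passed (limma, adjusted p = 0.022), with set 1 resting on its Cy3 array alone. That fit called 6.38% of 10261 genes tested, and 4 of the 57 members it tested, which were Dnajb9, Dnajb1, Dnajc28 and Hspa8. With the 0 kept as a ratio it averaged 0.29 (adjusted p = 0.0918). Leaving out sets in that fit, a check chosen after seeing the data, Hspa8 did not pass without set 1 (0.34, adjusted p = 0.163) or without set 3 (0.38, adjusted p = 0.102).

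None of the 7 Hspa genes tested passed, with means from -0.04 to 0.10. Hspa4, an Hsp110-type exchange factor, averaged 0.10 ± 0.10 (95% interval -0.03 to 0.22) and Hspa9, the mitochondrial Hsp70, 0.06 ± 0.07 (interval -0.05 to 0.17). Hspa13, an Hsp70 relative of microsomes, averaged 0.06 ± 0.02 and Hspa2, best known from the testis, 0.09 ± 0.11. None of the intervals of these 4 reached beyond 0.22 on the log2 scale. They describe set averages, in which a difference between orientations cancels, and do not bound single arrays. The arrays ranged from -0.03 to 0.25 for Hspa4 and from -0.13 to 0.29 for Hspa9. For Hspa13 they ranged from -0.07 to 0.20 and for Hspa2 from -0.08 to 0.38. The heat-inducible exchange factor Hsph1 averaged 0.04 ± 0.03, with arrays from -0.01 to 0.13, and Hspbp1 averaged 0.03 ± 0.07. Hspa14, a ribosome-associated Hsp70, had a ratio on 2 arrays, at 0.07 and -0.06. Hspa1l, another gene best known from the testis, had 4 ratios, 0.08 and 0.54 in Cy5 and -0.18 and -0.25 in Cy3.

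The inducible Hsp70 genes Hspa1a and Hspa1b, near-identical neighbours whose transcripts probes may not tell apart, gave no call but very uneven arrays. Both probes of Hspa1b are annotated to the same transcript record. Probe 14566 stayed between -0.13 and 0.01 on all 6 arrays after turning. Probe 15862 gave -1.49, -1.96 and 0.13 on the Cy5 arrays and 2.14, 1.65 and 0.20 on the Cy3 arrays. Sets 1 and 2 were thus far from 0 with opposite signs in the 2 orientations, while set 3 was near 0 in both. The gene's mean over probes was 0.03 ± 0.13 (adjusted p = 0.745). Hspa1a gave 0.14, -0.75 and -0.22 in Cy5 and -0.23, 0.94 and -0.12 in Cy3, a mean of -0.04 ± 0.13, with set 2 the far one.

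The small heat shock gene Hspb1, whose protein holds unfolded proteins and is strongly heat-inducible, showed the same array pattern as probe 15862. It gave -1.59, -1.43 and -0.02 on the Cy5 arrays and 2.12, 1.85 and 0.19 on the Cy3 arrays. The mean of the sets was 0.19 ± 0.09 (adjusted p = 0.0601), a small remainder of large values of opposite sign. The SD over set averages hides this spread. In a fit on 6 separate arrays with a dye term the adjusted p was 0.742. Hspb1 passed without set 3 (0.24, adjusted p = 0.0426) and after quantile normalization (0.24, adjusted p = 0.0473).

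Before turning, a ratio that follows the treatment changes sign between the orientations, and one that keeps its sign averages to less after turning. The average of the unturned ratios, called the dye component here without its cause having been tested, was -1.20 ± 0.96 for Hspb1, and 9 of the 8331 genes had a lower one. For Hspa1b it was -0.60, with 27 genes lower. Cct6b, a chaperonin subunit best known from the testis, had the largest positive dye component among the tested members, 0.46, from turned ratios of 0.44, 0.96 and -0.12 in Cy5 and -0.81, -0.90 and 0.21 in Cy3. For Cct6b set 3 had the opposite sign to sets 1 and 2 in both orientations, whereas for Hspb1 it kept their sign and lay near 0. No member's dye component passed (limma, adjusted over all genes), against 5 of 8331 genes (0.06%), and 16 of the 42 had an unadjusted p under 0.05 (38.1%, against 27.8% of all genes). Without set 3, a check chosen after seeing the data, Hspb1 (-1.75, adjusted p = 0.0059) and Hspa1b (-0.90, adjusted p = 0.0153) passed, among 24 genes in all. The cause of the difference between set 3 and the other sets was not tested.

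**Figure D3:**
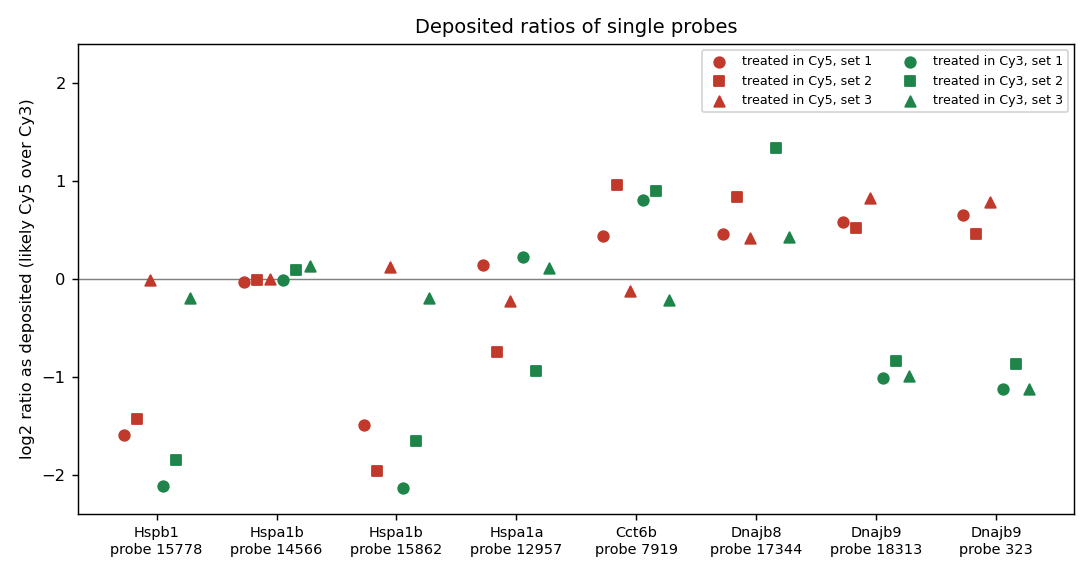
Ratios as deposited, before turning, for single probes of 6 chaperone genes, with colours for the dye of the treated RNA and shapes for the sets. Ratios that agree in sign after turning have red and green marks on opposite sides of 0, as both probes of Dnajb9 do. Hspb1 and probe 15862 of Hspa1b lie below -1.4 on sets 1 and 2 in both orientations and near 0 on set 3, and the other Hspa1b probe lies near 0 throughout.

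**Figure D4:**
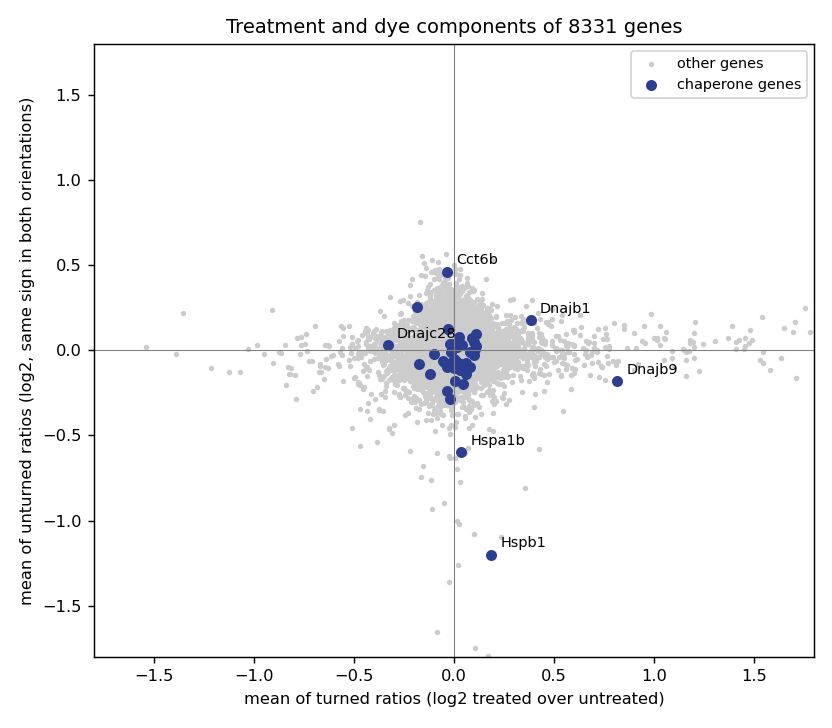
Mean of the turned ratios (treatment, horizontal) against the mean of the unturned ratios (dye, vertical) for 8331 genes, in log2 units, with chaperone genes in blue and 34 genes outside the plotted range. Dnajb9, Dnajb1 and Dnajc28 lie out along the treatment axis, and Hspb1, Hspa1b and Cct6b along the dye axis.

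Of the other small heat shock genes, Hspb7, best known from heart muscle, averaged -0.03 ± 0.09 and Hspb9, best known from the testis, 0.01 ± 0.10. Hspb2, Hspb3 and Hspb8 lacked ratios on 1 or 2 arrays each. Every measured ratio of these 3 was positive with treated RNA in Cy5 (0.08 to 0.52) and negative with it in Cy3 (-0.67 to -0.25), so that none had 1 sign across orientations.

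J-proteins of the Dnaja group, the closest partners of cytosolic Hsp70 along with Dnajb1, gave no call. Dnaja1 averaged 0.06 ± 0.06 (interval -0.04 to 0.17), Dnaja2 0.03 ± 0.05 with probes at 0.13 and -0.06, and the mitochondrial Dnaja3 -0.02 ± 0.08. In the Dnajb group 7 of 8 means were positive, against 3851 of all 8331 genes, and 4 of the 8 lay within 0.1 of 0. Apart from the called genes, Dnajb12, a J-protein of the endoplasmic reticulum membrane, averaged 0.11 ± 0.01 with arrays from -0.09 to 0.29 (adjusted p = 0.135). Dnajb6, which acts against protein aggregates, averaged 0.01 ± 0.05. Dnajb8, a relative of Dnajb6, had 5 ratios, 0.45, 0.84 and 0.42 in Cy5 and -1.33 and -0.43 in Cy3, again of opposite sign by orientation. In the Dnajc group 9 of 13 means were negative, against 4480 of all 8331 genes, and 8 of the 13 lay within 0.1 of 0. Dnajc7, a partner of Hsp70 and Hsp90, averaged -0.19 ± 0.15 (adjusted p = 0.119), but ranged from -0.07 to 0.23 in Cy5 and from -0.68 to -0.28 in Cy3, and on both its probes every Cy3 array lay below every Cy5 array (means -0.16 and -0.21). Dnajc19, of the mitochondrial import motor, averaged -0.12 ± 0.04 (adjusted p = 0.12), with all Cy5 arrays at or below -0.20 and the Cy3 arrays between -0.06 and 0.06. With treated RNA in Cy5 alone it passed (-0.26, adjusted p = 0.0431).

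Grouped by compartment, a grouping made with the results known, 7 members were listed for the endoplasmic reticulum, without Dnajb12, and all were tested, with 1 higher, Dnajb9, and 0 lower, a share near the 13.2% of all genes called. Hsp90b1, the Hsp90 of this compartment, averaged 0.10 ± 0.11 (interval -0.03 to 0.23) and Dnajb11, a co-chaperone there, 0.02 ± 0.09. Dnajc3, which restrains the stress kinase PERK, averaged 0.08 ± 0.05 (interval -0.03 to 0.18), with probes at 0.03 and 0.13. Dnajc10, a disulphide reductase, averaged 0.03 ± 0.08 and Dnajc1 -0.10 ± 0.03. Hsp90b1 and Dnajc3 were the members whose windows held the stress element of that compartment. For mitochondria 7 members were listed, without Dnajc28 and Dnajc4, the 2 called falls. Of these 7, 6 were tested and 0 were called, against 13.2% of all genes, with means from -0.12 to 0.06. The count of 0 holds for this list only.

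Of the cytosolic Hsp90 genes, Hsp90aa1, the inducible form, was listed at 0 on 5 of 6 arrays by both its probes. Their values on the remaining array, set 3 with treated RNA in Cy5, were 0.15 and -0.03. Hsp90ab1 was not analysed here. The tested genes of both chaperonins, Hspd1 and 4 Cct subunits, had means near 0, though single arrays of Cct6b ran from -0.90 to 0.96. Hspd1, the mitochondrial chamber protein, averaged -0.05 ± 0.09 (interval -0.17 to 0.08), with arrays from -0.17 to 0.15. Its neighbour and lid protein gene Hspe1 had 5 ratios from -0.25 to 0.06. The 4 tested subunits of the cytosolic chaperonin, which folds actin and tubulin, had means from -0.04 to 0.04. Cct8 was at 0.00046 ± 0.04, Cct6a at 0.01 ± 0.06 and Cct4 at 0.04 ± 0.02, though Cct4 was at -0.13, -0.21 and -0.12 in Cy5 and at 0.17, 0.31 and 0.24 in Cy3. Cct2, Cct3, Cct5 and Cct7 had ratios on 4 or 5 arrays, from -0.17 to 0.34. The 8 tested members not yet named, Hspa4l, Dnajb2, Dnajb7, Dnajc2, Dnajc12, Dnajc15, Dnajc24 and Dnajc30, had means from -0.06 (Dnajc15) to 0.08 (Dnajb2) and none passed. Of these, Dnajc30, a mitochondrial J-protein, gave -0.28, -0.34 and -0.31 on the Cy5 arrays and 0.45, 0.06 and 0.27 on the Cy3 arrays. The 5 remaining incomplete members were Dnaja4, Dnajb3, Dnajb5, Dnajc5b and Dnajc14. Of these, Dnajc14 had 2 ratios, 0.03 and -0.04, and the other 4 had means from -0.20 (Dnajc5b) to 0.04 (Dnajb3) in the fit with incomplete probes, where none passed.

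The 9 tested members with a heat shock element in a window had 0 calls and means from -0.05 to 0.19 (median 0.03). The 26 tested members with a window and no element held the 2 rises and 2 falls, with a median of 0.01. These counts of 0 of 9 and 4 of 26 stand beside the 13.2% called among all genes and were not tested against it. Of the genes with an element, Hspb1 passed in the alternatives given above.

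Genes that work with these chaperones were taken from a list of 49 names, of which 40 were on the array and 38 were tested. Of these, 2 rose and 1 fell, a share below the background of 13.2%, and the list's median was 0.01 against -0.01 for all genes. Grpel2, a nucleotide exchange factor of mitochondrial Hsp70, fell by 0.36 ± 0.05 (limma, adjusted p = 0.00352), with all 6 arrays between -0.46 and -0.28. Bag3, an exchange factor that sends clients to autophagy, rose by 0.27 ± 0.10 (adjusted p = 0.021), with all arrays between 0.17 and 0.39. It did not pass without set 1 (0.28, adjusted p = 0.113) or set 3 (0.22, adjusted p = 0.0584), on the Cy3 arrays alone (0.27, adjusted p = 0.0798), with zeros kept (adjusted p = 0.0946) or with incomplete probes (adjusted p = 0.0699). Hmox1, the stress enzyme that breaks down haem, rose by 0.34 ± 0.19 (adjusted p = 0.0338), from 0.04 to 0.75 over the arrays, and did not pass without set 1 (0.32, adjusted p = 0.169) or set 2 (0.26, adjusted p = 0.0698). On the Cy3 arrays alone Hmox1 averaged 0.17 (adjusted p = 0.191), against 0.50 on the Cy5 arrays, and it did not pass with zeros kept (adjusted p = 0.156) or with incomplete probes (adjusted p = 0.102). Among the remaining 35, the largest means regardless of sign were those of Bag6, Unc45a and Cdc37l1. Bag6 averaged 0.33 ± 0.39, with arrays from -0.23 to 0.91 (limma, adjusted p = 0.187). Unc45a averaged -0.16 ± 0.07 (adjusted p = 0.0758) and Cdc37l1 -0.13 ± 0.03 (adjusted p = 0.0914), each below 0 on all 6 arrays. Stip1, the adaptor that joins Hsp70 to Hsp90, averaged 0.09 ± 0.03 (adjusted p = 0.226), and Hsf2, a heat shock factor gene, -0.03 ± 0.14 (adjusted p = 0.809). Hsf1, another heat shock factor gene on the list, was not among the 40.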

How the data were processed

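Each of the 6 arrays has 1 log2 ratio per probe for 16281 probes, as deposited by the authors. How the arrays were scanned, background-corrected and normalized is not given in the sources used here. Their log base was read from the values, of which over 99.7% are 6-digit log10 numbers divided by log10 of 2. Array medians lay between 0.0043 and 0.016 before turning, so the arrays were centred near 0, in a way that is unknown. An exact 0 (8.99% to 23.9% of values) was taken as missing. The sign was turned (times -1) on Cy3 arrays. Complete probes, those with a ratio on every array, were averaged by gene where annotated with 1 symbol, and arrays that share a set number were averaged, giving 3 replicates. These were tested against 0 with limma 3.58.1 (lmFit, eBayes, two-sided, 2 residual and 4.08 prior degrees of freedom), with Benjamini-Hochberg adjustment over all 8331 genes and a threshold of 0.05. Intervals are 95% intervals from that fit. The script was tested on simulated data.

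Without intensities the signal over background is unknown, and the number of arrays limits the precision. Probe symbols are those of the platform annotation, and matching 13694 probes by gene identifier to RefSeq changed 0 symbols. Members, the partner list and the compartment groups were chosen with earlier results of these data known. Named are all called members, the 4 measured members of largest absolute mean in each family, and 19 fixed genes. Others are named after their values were seen. Alternatives were dye orientation, treatment of zeros and incomplete probes, centring, quantile normalization, 1 probe per gene, separate arrays with a dye term, and leaving out each set.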

Additional observations from a re-analysis of the deposited data

Results flagged for a closer look

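In 10 of the 42 tested members (23.8%, against 13.7% of all genes) every array with treated RNA in Cy5 had the opposite sign to every array with it in Cy3, after turning. Their mean unturned ratios were -1.20 for Hspb1, -0.28 for Dnajc30, -0.20 for Cct4, -0.18 for Hspb9 and -0.14 for Hspa9. They were -0.11 for Dnajc10, -0.11 for Hspa4l, -0.077 for Dnaja2, -0.063 for Dnajb6 and 0.13 for Hspb7. The test of this difference between orientations passed for none of the 10 (limma, adjusted p from 0.114 to 0.237). Their treatment means, which average the orientations, carry this difference as spread that the SD over sets does not show.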

How the results depend on the processing

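Dnajb9, Dnajb1 and Dnajc28 kept their direction under all alternatives run, and their call too, except Dnajb1 on the Cy3 arrays alone. The members that rose numbered 1 with treated RNA in Cy3 only. The members that fell numbered 4 with treated RNA in Cy5 only (Dnajc4, Dnajc19, Dnajc28 and Dnajc30) and 1 with it in Cy3 only, with zeros kept, with incomplete probes, after quantile normalization, and without any of the sets (1 to 1). All genes called numbered 1035 of 8331 in Cy5 only, 649 of 8331 in Cy3 only and 1080 of 8331 after quantile normalization. They numbered 522 of 10698 with zeros kept, 655 of 10261 with incomplete probes and 499 to 832 of 8331 with a set left out. The members tested numbered 60 with zeros kept, 57 with incomplete probes and 42 in the other runs. Called partner genes numbered 5 on separate arrays with a dye term, with or without the replicate block, 1 in Cy3 only, with zeros kept or with incomplete probes, and 1 to 3 with a set left out. Members with a called dye component numbered 0 to 2 with a set left out, a check chosen after seeing the data. The causes of these shifts were not tested. Leaving out a set changed both the number of averages and the sets in the fit. Arrays that share a set number correlated at -0.0077, -0.281 and -0.0943 after turning, with orientation means removed. Whether the numbers pair the arrays cannot be read from these values. A deviation that 2 arrays share in the deposited ratios takes opposite signs after turning. With the set as a random replicate block the consensus correlation was 0.082, 1340 genes were called, and 2 members rose (Dnajb9 and Dnajb1) and 2 fell (Dnajc28 and Dnajc4). Without the block 1439 were called. Over the named genes alone, 31 tested members and Hspa8, which leave out Dnajc30, there were 376 values under the alternatives. Of these, 329 kept direction and side of the threshold, 11 lost and 3 gained the call, and 33 uncalled values changed sign.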
